A study of Mus musculus with 2 samples.

Results

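The MHC class I presentation genes described here are 10 genes chosen by name, of 19357 genes counted in aortic cells of diabetic and control mice. They are the heavy chains H2-K1, H2-D1, H2-Q7 and H2-T23, the light chain B2m, the peptide transporter subunit Tap1, the loading factor Tapbp, and the proteasome genes Psmb8, Psmb9 and Psme1. All 10 had rows in both libraries. Both groups were male Apoe-/- C57BL/6 mice, which lack apolipoprotein E and develop atherosclerosis, so that the controls also carried the deletion. The diabetic mice received streptozotocin, a beta cell toxin, by intraperitoneal injection at 55 mg/kg per day on 5 consecutive days from 6 weeks of age. The control mice received citrate vehicle. At the end of a follow-up of 10 weeks, the mice were 17 weeks old and the aortae were digested with enzymes at 37 °C. Each library pools 4 mice of a group, sorted for live cells and read with 10x 3′ v2 chemistry.

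The diabetic library held 2524 cells with a deposited cell class (11833577 unique molecular identifiers, UMIs; median 4477.5 per cell), and the control library held 3060 (12390769 UMIs; median 3760 per cell). The authors named 13 classes, of which 7 had at least 50 cells in each library: ECs (endothelial cells), Mac (macrophages), Fib-1, Fib-2 and Fib-3 (fibroblasts), and VSMCs-1 and VSMCs-2 (vascular smooth muscle cells). The other 6 were B Cells, Foam cells, MoDC, Mono, NKT Cells and T cells. Because a group is 1 library, replicate error cannot be measured for any difference. Every interval below is a 95% interval that covers counting error only, and mouse-to-mouse variation cannot be told apart from the group. Markers are given here for ECs, VSMCs-2 and Fib-2 only, as sums per 1000000 UMIs. Endothelial markers summed to 6625 in diabetic and 6949 in control ECs. Smooth muscle markers summed to 55289 in diabetic and 56286 in control VSMCs-2 cells. Fibroblast markers summed to 27880 in diabetic and 36556 in control Fib-2 cells. The 2 libraries shared 15 cell barcodes, 8 of them annotated in both.

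Class I molecules carry short peptides from inside a cell to its surface, where CD8 T cells and natural killer cells read them. Proteasomes cut proteins into peptides, the TAP transporter moves them into the endoplasmic reticulum, and tapasin, the product of Tapbp, helps load them onto a heavy chain paired with beta-2 microglobulin. H2-K1 and H2-D1 encode the classical heavy chains that present to CD8 T cells. H2-T23 encodes the non-classical Qa-1 chain, a ligand of the CD94/NKG2 receptors of natural killer cells, and H2-Q7 encodes a Qa-2 chain. Interferons are known to raise most of these genes and to place the inducible subunits Psmb8 and Psmb9 in the immunoproteasome. In the vessel wall, endothelial cells are known for high class I levels.

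In GRCm38 coordinates from GENCODE, 8 of the 10 genes lie on chromosome 17. H2-T23 spans chr17:36029773-36032855 on the minus strand, H2-D1 chr17:35262730-35267499 and H2-Q7 chr17:35439155-35443773 on the plus strand, and H2-K1 chr17:33996017-34000347 on the minus strand. Tapbp spans chr17:33915899-33929292, Tap1 chr17:34187553-34197225 and Psmb8 chr17:34197721-34201454 on the plus strand, and Psmb9 chr17:34181987-34187764 on the minus strand. B2m spans chr2:122147686-122153083 and Psme1 chr14:55578123-55581529, both on the plus strand. The stretch before the transcription start of class I genes is known to hold a kappa B site, an interferon response element and the core of a cyclic AMP element. The 250 bases before the RefSeq start (GRCm38.p6) are shown for 3 promoters that carry most of these letters and for H2-T23, the member with the largest differences below. Capitals mark every match, on either strand, to GGGA followed by 4 bases of any kind and CC (kappa B-like), GAANNGAAA (interferon response element-like), TGACG (cyclic AMP element core) and CCAAT; overlapping matches run together.
H2-K1, chr17:34000348-34000597, minus strand: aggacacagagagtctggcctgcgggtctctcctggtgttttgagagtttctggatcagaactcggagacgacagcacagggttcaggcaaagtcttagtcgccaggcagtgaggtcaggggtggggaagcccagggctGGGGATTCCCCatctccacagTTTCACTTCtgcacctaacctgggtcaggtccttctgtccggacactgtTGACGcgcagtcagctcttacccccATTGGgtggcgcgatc
H2-Q7, chr17:35438905-35439154, plus strand: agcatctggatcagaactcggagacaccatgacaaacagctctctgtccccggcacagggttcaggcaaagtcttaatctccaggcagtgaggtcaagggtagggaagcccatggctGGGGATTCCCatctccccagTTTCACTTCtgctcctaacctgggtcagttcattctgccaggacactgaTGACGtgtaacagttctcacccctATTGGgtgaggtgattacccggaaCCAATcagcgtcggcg
B2m, chr2:122147437-122147686, plus strand: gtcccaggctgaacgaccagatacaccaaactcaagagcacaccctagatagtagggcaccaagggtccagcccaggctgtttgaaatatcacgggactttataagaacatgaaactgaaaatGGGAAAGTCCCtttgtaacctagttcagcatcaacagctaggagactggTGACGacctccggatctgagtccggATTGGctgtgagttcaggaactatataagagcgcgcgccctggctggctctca
H2-T23, chr17:36032702-36032951, minus strand: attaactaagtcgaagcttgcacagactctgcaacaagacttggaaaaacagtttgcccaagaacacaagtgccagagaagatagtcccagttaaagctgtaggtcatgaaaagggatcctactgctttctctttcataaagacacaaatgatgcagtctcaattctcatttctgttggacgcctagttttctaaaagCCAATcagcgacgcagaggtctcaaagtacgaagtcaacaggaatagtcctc

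The H2-K1 window held 2 overlapping kappa B-like matches, 1 interferon response element-like match, 1 TGACG and 1 CCAAT, and the H2-Q7 window held 1 kappa B-like match, 1 interferon response element-like match, 1 TGACG and 2 CCAAT. The B2m window held 2 overlapping kappa B-like matches, 1 TGACG and 1 CCAAT. The H2-D1 window, not printed, held matches to the same 4 motifs. The H2-T23 window held 1 CCAAT and no match to the other 3, which says only that these letters are not in this window. Its RefSeq start lies inside the GENCODE gene, as is also the case for H2-D1, Tapbp, Psmb8, Psmb9 and Psme1. Kappa B-like letters were present in 4 of the 10 windows, against 17.6% of 32851 RefSeq promoters of the same length. Interferon response element-like letters were in 3 of the 10 windows (6.31% of all promoters), TGACG in 6 (17.8%) and CCAAT in 8 (33.8%). The AP-1 letters TGANTCA were in 0 of the 10 (6.75% of all promoters). These counts are not of 10 separate promoters. The Tap1 and Psmb9 windows overlap on opposite strands, and their TGACG and CCAAT matches are the same sites. The H2-K1, H2-D1 and H2-Q7 windows held the same interferon response element-like letters.

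The level of the 10 genes differed between cell classes. Summed over the 10, counts per 1000000 UMIs of the class (CPM) in the diabetic library were highest in NKT Cells (11692), Mono (11100) and ECs (10552), of which each overlapped the next in counting error. Foam cells (9312), MoDC (7525), Mac (7368) and B Cells (6029) followed. Fib-1 (3865), Fib-2 (3846) and T cells (3681) overlapped each other in counting error, and B Cells above them and Fib-3 below them stood apart. Fib-3 (3087), VSMCs-1 (2135) and VSMCs-2 (1426) were lowest. In the control library ECs (13936), Mono (13445) and NKT Cells (13273) were likewise highest, and VSMCs-1 (2301) and VSMCs-2 (1751) lowest.

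**Figure D1:**
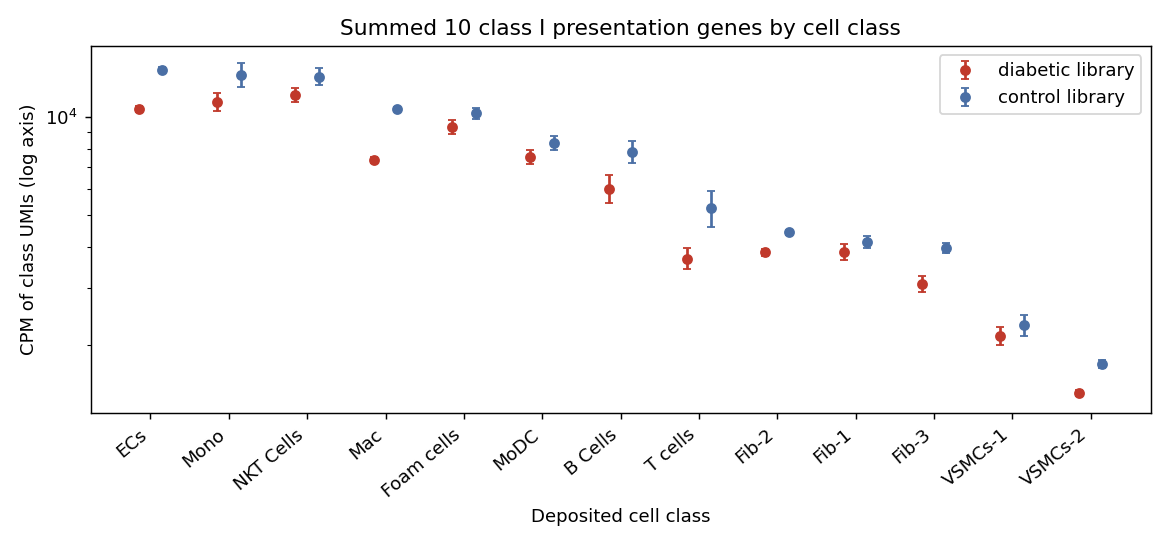
Summed CPM of the 10 class I presentation genes (log axis) in each of the 13 deposited cell classes, ordered by the control level. Points are the value of the 1 diabetic and 1 control library and bars are Poisson 95% intervals, which cover counting error only; the diabetic point lies below the control point in 13 of 13 classes.

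The sum was lower in the diabetic library in 13 of 13 classes. Within the 7 main classes the ratio of diabetic over control ran from 0.697 in Mac (7368 against 10567 CPM; interval 0.680 to 0.715) to 0.934 in Fib-1 (3865 against 4139 CPM; interval 0.871 to 1.001). ECs had 0.757 (10552 against 13936 CPM; interval 0.738 to 0.777), Fib-3 0.779, VSMCs-2 0.815, Fib-2 0.868 and VSMCs-1 0.928, and the VSMCs-1 interval of 0.842 to 1.02 included 1. All 13 classes share the same 2 libraries, so they do not replicate each other.

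A member was called where it had at least 30 UMIs over both libraries, differed at least 1.5-fold and had an interval that excluded 1. Over all annotated cells, 6 of 10 members were called lower in the diabetic library (H2-K1, H2-D1, H2-T23, H2-Q7, B2m and Tapbp) and 0 higher; of all 12753 genes tested there, 10.05% were called lower and 8.95% higher. The median log2 ratio of the members was -0.65, against 0.02 for all genes tested. These pooled values mix class make-up with levels within classes, which are given separately below. Within classes fewer members were called. In ECs 1 of 10 was lower and 0 higher, against 4.02% of genes tested lower and 4.18% higher. In Mac 2 of 10 were lower and 0 higher (5.66% and 8.79% of genes tested). Fib-2 had 1 of 9 lower and 0 higher (3.62% and 5.43%), Fib-1 had 1 of 7 lower and 0 higher (5.26% and 3.45%), and Fib-3 had 2 of 7 lower and 0 higher (6.58% and 4.15%). VSMCs-2 had 1 of 8 lower and 0 higher (3.90% and 4.77%), and VSMCs-1 had 0 of 5 either way (4.82% and 3.23%). After thinning every cell to 1000 UMIs, 0 members were called in Mac, Fib-1, Fib-3 and VSMCs-2. Thinning leaves fewer UMIs in each class and also gives every cell kept the same weight.

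**Figure D2:**
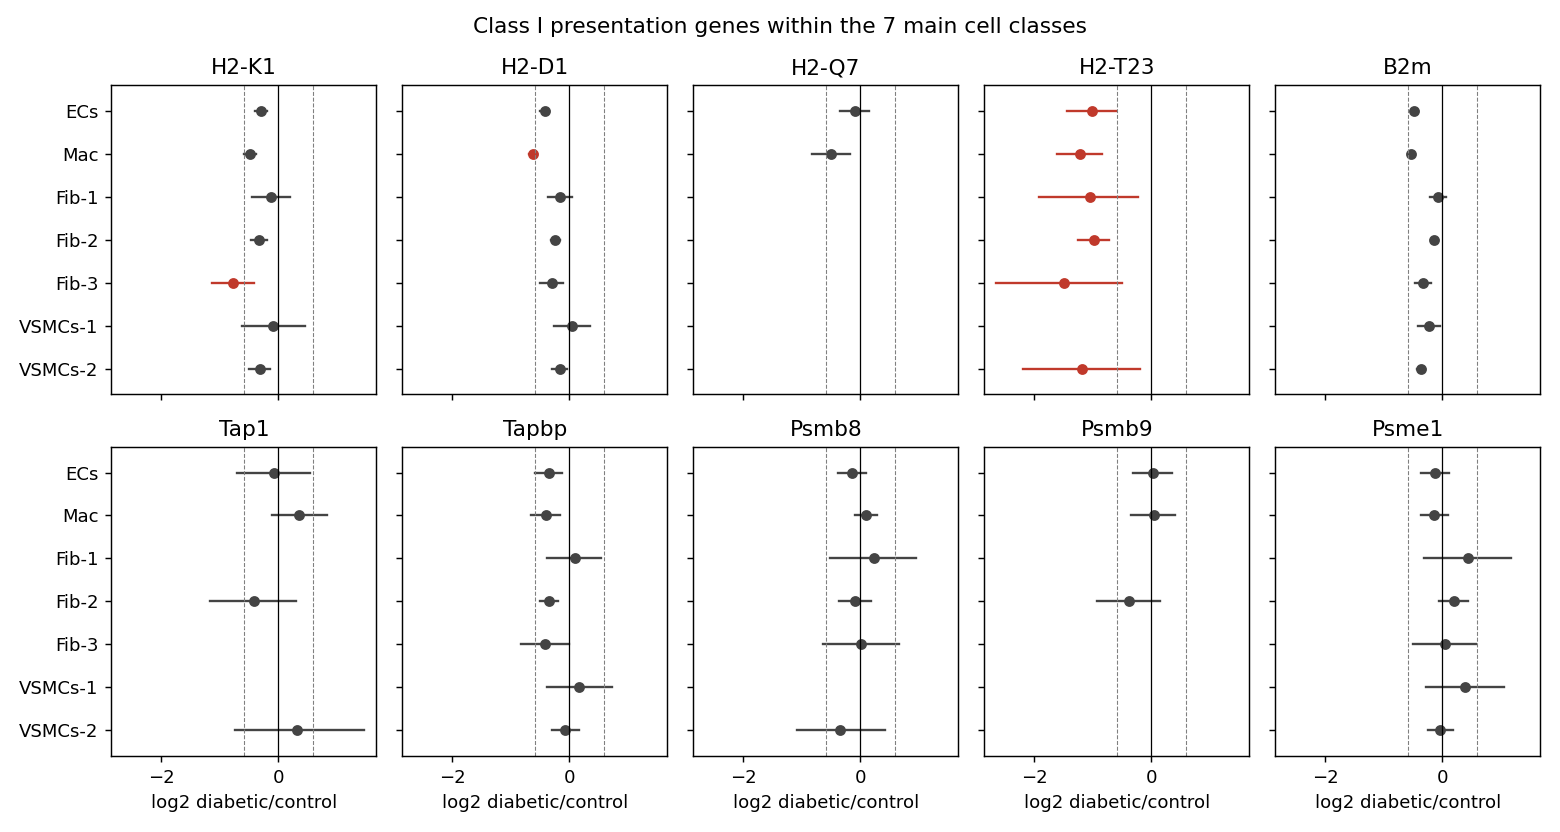
Log2 ratio of diabetic over control CPM for each member (panels) in the main classes (rows) in which it had at least 30 UMIs, with 95% counting intervals; red marks members called lower and dashed lines 1.5-fold. H2-T23 was called lower in each of the 6 classes in which it was tested, and the only other red points are H2-D1 in Mac and H2-K1 in Fib-3.

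The medians of the members tested were -0.44 in Mac, -0.33 in Fib-2 and Fib-3, -0.25 in VSMCs-2, -0.22 in ECs, -0.08 in Fib-1 and 0.04 in VSMCs-1 on the log2 scale. Those of all genes tested lay between -0.08 in Fib-1 and 0.06 in Mac. The members' median lay below that of all genes in 5 of these classes and above it in Fib-1 and VSMCs-1.

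Among the members with at least 30 UMIs, H2-T23 had the lowest ratio in each of the 6 main classes where it was tested; H2-Q7, which was under that minimum, had lower ratios in Fib-1 (0.392, from 1 and 4 UMIs) and VSMCs-2 (0.389, from 4 and 5 UMIs). In ECs it had 78.5 CPM (67 UMIs) in diabetic and 158 CPM (173 UMIs) in control cells, a ratio of 0.496 (interval 0.368 to 0.661). In Mac it had 61.1 CPM in diabetic and 141 CPM in control cells (ratio 0.432, interval 0.329 to 0.560). In Fib-2, the class with most H2-T23 UMIs, it had 74.7 CPM in diabetic and 148 CPM in control cells (ratio 0.505, interval 0.420 to 0.604). These 3 classes hold the best-counted H2-T23 values, and their intervals overlap each other.

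The further H2-T23 values rest on fewer UMIs. Fib-1 had 51.2 CPM from 17 UMIs in diabetic and 105 CPM from 55 UMIs in control cells, with a ratio of 0.485. Fib-3 had 25.2 CPM from 10 UMIs in diabetic and 71.1 CPM from 51 UMIs in control cells, with a ratio of 0.354. VSMCs-2 had 3.15 CPM from 18 UMIs in diabetic and 7.19 CPM from 20 UMIs in control cells, with a ratio of 0.438. VSMCs-1 had 5 UMIs in each library and was not tested. The H2-T23 ratio was below 1 in 13 of 13 classes, the 6 small ones included, of which MoDC (0.369) and NKT Cells (0.380) had intervals that excluded 1.

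**Figure D3:**
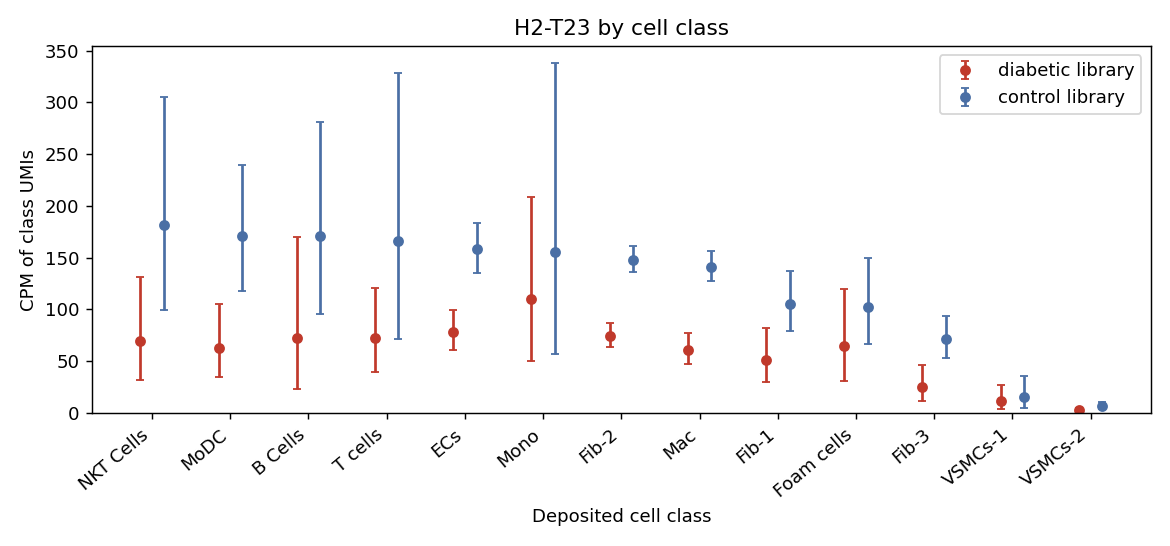
H2-T23 level in CPM (linear axis from 0) in the 13 deposited cell classes, for the 1 diabetic and 1 control library, with Poisson 95% intervals that cover counting error only. The diabetic point is lower in 13 of 13 classes; the intervals of both libraries do not overlap in ECs, Fib-2, Fib-3, Mac and MoDC.

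Thinned to 1000 UMIs per cell, 7.27% of 220 diabetic ECs and 14.3% of 343 control ECs had an H2-T23 UMI, with 8 and 23 shallower cells left out. Unthinned, the shares were 24.6% in diabetic and 32.5% in control ECs, at medians of 3504 and 2867 UMIs. In Fib-2 the thinned shares were 7.69% in diabetic and 14.7% in control cells. Among barcodes with over 50% haemoglobin UMIs, 0 of 487 had an H2-T23 UMI in the diabetic and 0 of 28 in the control library after thinning. Unthinned, they held 2 H2-T23 UMIs in the diabetic and 0 in the control library. Their UMIs of all members summed to 154 in the diabetic and 15 in the control library. Most of their UMIs are haemoglobin, which leaves few for other genes, so these values do not measure a background level. Of the 90-base windows at the 3′ end of H2-T23, 13.4% also occurred in another gene (Rab33b, Hook2 or the pseudogene H2-T-ps), and the deposited counts do not show where such reads were placed.

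The nearest class I gene upstream, H2-T22, encodes another non-classical heavy chain, and its values were set beside those of H2-T23. H2-T22 had ratios of 1.05 in ECs (interval 0.816 to 1.34), 1.26 in Mac (interval 0.968 to 1.63) and 0.796 in Fib-2 (interval 0.667 to 0.946), and it was called in none of the 6 main classes in which it was tested. H2-T22 was named after its values were seen. Of the other 4 neighbouring genes with values, Abcf1 was called lower in Fib-2 (ratio 0.645) and Fib-3 (ratio 0.444), and Ppp1r10 lower in VSMCs-2 (ratio 0.652) and higher in ECs (ratio 2.10). Gnl1 was called higher in ECs (ratio 1.80), and Prr3 was not called.

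The classical chains were abundant, and their differences were smaller. H2-D1 had 3041 CPM in diabetic and 4080 CPM in control ECs (ratio 0.745, interval 0.710 to 0.783). In Mac it had 1987 CPM in diabetic and 3054 CPM in control cells (ratio 0.651, interval 0.621 to 0.682), and it was called lower there. In Fib-2 it had 873 CPM in diabetic and 1031 CPM in control cells (ratio 0.846), and in VSMCs-2 262 CPM in diabetic and 295 CPM in control cells (ratio 0.890). Among the 7 main classes, the H2-D1 ratio was above 1 in VSMCs-1, at 502 CPM in diabetic and 488 CPM in control cells (ratio 1.03, interval 0.835 to 1.27).

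H2-K1 had 1659 CPM in diabetic and 2037 CPM in control ECs (ratio 0.815, interval 0.762 to 0.871). In Mac it had 896 CPM in diabetic and 1252 CPM in control cells (ratio 0.716, interval 0.666 to 0.768). It was called lower in Fib-3, at 222 CPM in diabetic and 378 CPM in control cells (ratio 0.587, interval 0.456 to 0.749). Ratios were below 1 for H2-K1 in 7 of 7 main classes, with intervals that excluded 1 in 5. Of the UMIs of both classical chains, H2-K1 made up 26.1% in diabetic and 27.3% in control Fib-2 cells, and 31.1% in diabetic and 29.1% in control Mac cells. This share is one of 3′ UMIs, which are not divided by gene length.

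H2-Q7 was concentrated in ECs and leukocytes. It had 295 CPM in diabetic and 317 CPM in control ECs (ratio 0.932, interval 0.789 to 1.10), and 94.7 CPM in diabetic and 133 CPM in control Mac cells (ratio 0.710, interval 0.566 to 0.884). In the fibroblast and smooth muscle classes it had 0 to 12 UMIs per library and was not tested. The highest level was in NKT Cells, at 546 CPM in diabetic and 675 CPM in control cells. Of its 3′ windows, 4.73% were shared with H2-Q5.

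B2m, the common light chain, was the most counted member. It had 4388 CPM in diabetic and 6115 CPM in control ECs (ratio 0.718, interval 0.689 to 0.747). Mac had 3544 CPM in diabetic and 5164 CPM in control cells (ratio 0.686, interval 0.662 to 0.711). VSMCs-2 had 854 CPM in diabetic and 1104 CPM in control cells (ratio 0.773), and Fib-2 had 2141 CPM in diabetic and 2353 CPM in control cells (ratio 0.910). The B2m interval lay below 1 in 6 of 7 main classes, Fib-1 being the exception, and in none did the difference reach 1.5-fold.

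The peptide transporter and loading genes differed from each other. Tap1, a subunit of the transporter, had 46.8 CPM in diabetic and 49.4 CPM in control ECs (ratio 0.948, interval 0.614 to 1.45), and 54.9 CPM in diabetic and 42.8 CPM in control Mac cells (ratio 1.28, interval 0.924 to 1.76). Its interval included 1 in each of the 4 main classes in which it was tested. Tapbp had 296 CPM in diabetic and 378 CPM in control ECs (ratio 0.784, interval 0.668 to 0.919), and 226 CPM in diabetic and 287 CPM in control Fib-2 cells (ratio 0.787). Its interval excluded 1 in 4 of 7 classes, with no call. On the same strand, Tapbp overlaps Zbtb22 in the annotation.

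The proteasome members were not called in any of the 7 main classes. Calls were made for those classes and for all cells; among the small classes, Psmb8 in Mono had 25 UMIs in diabetic and 23 in control cells, with a ratio of 0.513 (interval 0.279 to 0.946), and in MoDC a ratio of 1.34 (interval 1.004 to 1.81). Psmb8, an inducible catalytic subunit, had 294 CPM in diabetic and 326 CPM in control ECs (ratio 0.903, interval 0.765 to 1.06), and 305 CPM in diabetic and 285 CPM in control Mac cells (ratio 1.07, interval 0.937 to 1.22). Psmb9, also an inducible subunit, had 166 CPM in diabetic and 164 CPM in control ECs (ratio 1.02, interval 0.809 to 1.27). Psme1, a subunit of the 11S activator, had ratios between 0.907 in Mac and 1.35 in Fib-1. For these 3 genes, intervals included 1 in each main class tested, which does not show that levels were equal.

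An inducible subunit replaces a constitutive one in the proteasome, so the pairs were also set against each other. Psmb8 made up 64.0% of Psmb8 and Psmb5 UMIs in diabetic ECs (interval 59.1 to 68.8) and 59.9% in control ECs (55.9 to 63.9). It made up 70.9% in diabetic and 66.8% in control Mac cells, 34.8% in diabetic and 32.4% in control Fib-2 cells, and 2.97% in diabetic and 3.30% in control VSMCs-2 cells. Psmb9 made up 38.6% of Psmb9 and Psmb6 UMIs in diabetic ECs and 35.0% in control ECs, and 0.419% in diabetic and 0.491% in control VSMCs-2 cells. The share was high in ECs and Mac and low in VSMCs-2, and the intervals of both libraries overlapped in each of these classes. Over all annotated cells the Psmb8 share was 34.0% in diabetic and 41.7% in control cells, with intervals apart.

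The libraries differed in class make-up. VSMCs-2, the class with the lowest sum, held 48.3% of diabetic and 22.5% of control UMIs, and Mac held 9.55% of diabetic and 21.1% of control UMIs. Over the 7 main classes pooled, the sum had a ratio of 0.567 (3375 CPM in diabetic and 5954 CPM in control cells). Control class levels combined with the diabetic class make-up gave 0.721 of the control value. With the same class weights in both libraries, taken as the mean share of UMIs, the ratio was 0.777 (3984 CPM in diabetic and 5125 CPM in control cells); weights by cells gave 0.791. With the same weights H2-T23 had 0.476, H2-D1 0.752, H2-K1 0.771, B2m 0.773, H2-Q7 0.821 and Tapbp 0.825. Psmb9 (0.951), Psmb8 (0.988), Psme1 (0.992) and Tap1 (1.04) lay near 1.

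**Figure D4:**
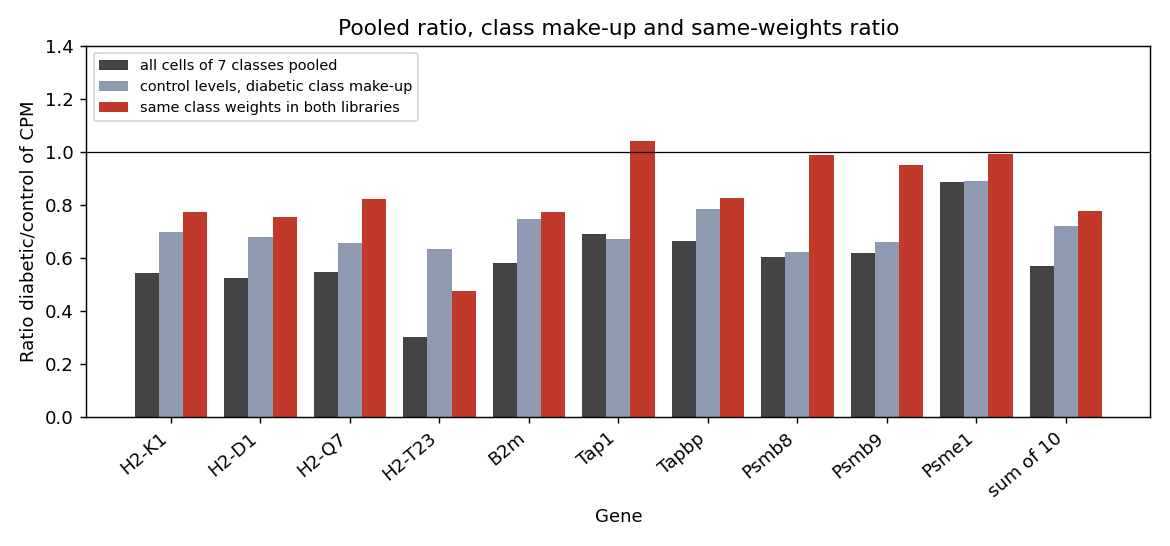
Ratio of diabetic over control CPM over the 7 main classes for each member and their sum (bars from 0): all cells pooled, control class levels with the diabetic class make-up, and the same class weights in both libraries. Bars have no error because each rests on 1 library per group; the same-weights ratio is 0.476 for H2-T23 and between 0.951 and 1.04 for Psmb9, Psmb8, Psme1 and Tap1.

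Leukocyte and erythroid transcripts in the wall classes also differed between libraries. Summed over 12 leukocyte markers, levels were lower in the diabetic library: 110 CPM in diabetic and 428 CPM in control Fib-2 cells, 62.4 and 285 CPM in diabetic and control VSMCs-2 cells, and 532 and 1252 CPM in diabetic and control ECs. The markers were Ptprc, Cd74, Laptm5, Tyrobp, Fcer1g, Coro1a, Cd52, Lyz2, C1qa, C1qb, Cd3e and Cd79a. Cells with 2 or more such UMIs made up 12.3% of diabetic and 38.8% of control ECs. In control ECs the members summed to 15593 CPM in such cells and 12633 CPM in the rest. In diabetic ECs they summed to 10270 and 10600 CPM. Leaving such cells out can thus also select on class I level. Without cells holding 2 or more such UMIs the summed ratio in ECs was 0.839 (interval 0.813 to 0.866) in place of 0.757. Also without them, H2-T23 had a ratio of 0.467 in ECs and 0.507 in Fib-2, whereas its call in VSMCs-2 was lost (ratio 0.638), and in Fib-3 the call of H2-K1 was lost (ratio 0.689). Erythroid markers ran the other way, at 46236 CPM in diabetic and 2527 CPM in control Fib-1 cells and 11578 CPM in diabetic and 116 CPM in control VSMCs-2 cells.

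The Mac class held its 8 macrophage markers, at 25475 CPM in diabetic and 40695 CPM in control cells. It also held all 7 T cell markers, at 712 CPM in diabetic and 351 CPM in control cells. Cells with 2 or more T, NK or B cell marker UMIs were 49.3% of diabetic and 49.8% of control Mac cells, and without them the summed ratio was 0.699. H2-D1 was then no longer called (ratio 0.725), and 3 members were called lower, H2-T23 (0.443), H2-Q7 (0.499) and B2m (0.667). Cells with at least as many of these as macrophage marker UMIs were 4.80% of diabetic and 0.392% of control Mac cells, and without them the ratio was 0.702, with 2 called lower. They include cells with neither kind of marker. Of the 11 diabetic cells 36.4%, and of the 2 control cells 50%, had no lymphocyte marker UMI.

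Further genes of the pathway were read from fixed lists. Among other heavy chains and related genes, 6 of 12 tested were called lower and 1 higher over all cells (10.05% and 8.95% of all genes tested). In Mac 3 of 10 were lower and 0 higher (5.66% and 8.79% of all genes tested). H2-M3, which presents formylated peptides, had 31.9 CPM in diabetic and 64.6 CPM in control cells (ratio 0.493). The others were Hfe, the haemochromatosis gene (ratio 0.576), and Fcgrt, the neonatal Fc receptor (ratio 0.632). In ECs 0 of 7 and in Fib-2 0 of 7 were called either way. Of all genes tested, 4.02% in ECs and 3.62% in Fib-2 were lower, and 4.18% and 5.43% higher. H2-Q2 was the gene called higher over all cells, from 31 UMIs in diabetic and 10 in control cells.

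Of 11 genes of peptide supply and loading, Hspa5, the endoplasmic reticulum chaperone BiP, was called lower in 6 of the 7 main classes. It had 636 CPM in diabetic and 1046 CPM in control ECs (ratio 0.608), and 1018 CPM in diabetic and 2101 CPM in control Fib-2 cells (ratio 0.485). Tap2, the partner of Tap1 in the transporter, was called lower in Fib-2 (ratio 0.642) and in Mac (ratio 0.615). Tapbpl was called lower in VSMCs-2 (ratio 0.406) and Calr in Fib-3 (ratio 0.666). Over all cells Hspa5 (0.480), Tapbpl (0.633) and Tap2 (0.655) were called lower. Of all genes tested in a main class, between 3.62% (Fib-2) and 6.58% (Fib-3) were called lower. Lnpep, a peptide-trimming aminopeptidase, was called higher in ECs (ratio 1.58), against 1 lower of 11 tested (4.18% higher and 4.02% lower among all genes tested). Of 14 constitutive proteasome core genes, 0 were called over all cells, in ECs, Mac, Fib-1, Fib-2 or VSMCs-2; Psma4 was called lower in VSMCs-1 and Psmb5 in Fib-3. Of the list of immunoproteasome and activator genes, Psme3, a nuclear proteasome activator, was called higher in Fib-2 (ratio 1.68) and Mac (ratio 1.86). Psmb10, the third inducible subunit, was called lower in Fib-3 (ratio 0.571), and Psme2 in Fib-1 (ratio 0.628).

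Regulators and interferon response genes were called in both directions. Of all genes tested, 4.18% in ECs, 8.79% in Mac, 5.43% in Fib-2, 4.77% in VSMCs-2 and 3.23% in VSMCs-1 were called higher. The shares called lower were 4.02% in ECs, 5.66% in Mac, 3.62% in Fib-2, 3.90% in VSMCs-2 and 4.82% in VSMCs-1. Of 20 regulators, 0 were called higher and 1 of 12 tested lower in ECs, where Irf2 had 49.2 CPM in diabetic and 77.8 CPM in control cells. In Mac 2 of 17 were higher, Ifngr2 (ratio 1.67) and Jak2 (ratio 1.53), and 0 lower. Socs1, a feedback inhibitor of cytokine signalling, was called higher in Fib-2 (ratio 2.04) and VSMCs-2 (ratio 1.83), and Nfkb1, an NF-kappa B subunit, higher in Fib-2 (ratio 1.65). Irf2 was called lower in VSMCs-2 (ratio 0.651) and Ifngr1, a chain of the interferon gamma receptor, lower in VSMCs-1 (ratio 0.517). Of 25 interferon response genes, 4 of 21 tested in ECs were called higher and 0 lower. Irf7 had 89.0 CPM in diabetic and 23.8 CPM in control ECs (ratio 3.74, interval 2.37 to 6.09), and Rsad2 32.8 CPM in diabetic and 4.57 CPM in control ECs (ratio 7.17, from 28 and 5 UMIs); Zbp1 (2.44) and Rtp4 (1.73) were the others. In Mac Ifit3 (2.61), Rsad2 (2.28) and Ifit1 (1.98) were called higher and Gbp2 (0.525) lower, of 23 tested. Over all cells 0 of 25 were higher and 8 lower (8.95% and 10.05% of all genes tested). This pooled count mixes class make-up with levels within classes. Of the 7 interferon genes, 0 reached 30 UMIs in any class.

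Of 14 receptor genes that read class I or belong to the cells that do, 6 of 9 tested in Mac were called higher and 1 lower. Of all genes tested in Mac, 8.79% were called higher and 5.66% lower. In any wall class, 0 of the 14 reached 30 UMIs. Cd8a, the class I co-receptor chain, had 65.5 CPM in diabetic and 20.3 CPM in control Mac cells (ratio 3.23). Of the receptor genes called higher, Cd8a, Cd3d and Cd3e are among the T cell markers given above for that class. Klrd1, also called higher, is among the NK cell markers. The receptor calls and the marker levels are therefore not separate observations, and the part of lymphocyte transcripts in the calls was not tested. Klra7, a natural killer receptor gene, had 2 UMIs in diabetic and 30 in control Mac cells (ratio 0.154).

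Over the 14 values of 7 classes in 2 libraries, the genes most like the summed members by Pearson's r of log2(CPM + 1) were Fxyd5 (0.943), Ppp1ca (0.940), Ifitm2 (0.939), Tmbim6 (0.932) and Nfkbia (0.910), among 898 genes with at least 30 UMIs in each. The 14 values share 2 libraries and are a description. Among the members, H2-D1 followed the other 9 summed most closely (r = 0.993) and H2-T23 (0.843), Psme1 (0.772) and Tapbp (0.770) least closely.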

How the data were processed

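The values are UMI counts, not normalized, that the authors deposited as 1 matrix per library. The submitters' processing notes name Cell Ranger 3.1.0, Partek and mm10. Cell classes, 13 in all, came from the authors' annotation tables. How shared reads were counted, and on which annotation release, is not given in the sources used here. UMIs were summed per class and library and scaled to CPM. Ratios of diabetic over control have exact conditional binomial intervals, CPM Poisson and shares Clopper-Pearson intervals, all at 95% and for counting error only. For a ratio, 0 UMIs were replaced by 3 UMIs. No p-value was computed, because each group is 1 library. Sums of fewer UMIs give wider intervals.

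The rule for named genes took all 10 members, up to 4 called genes of each pathway list with those that went against them, and the 5 genes most like the summed members; H2-T22 was named after its values were seen. The members and lists were chosen with earlier results of these data known. No doublet caller was run. As alternatives, the 5% of cells with most UMIs per class, or wall cells with leukocyte UMIs, were left out. Whether the cells left out were doublets was not tested. Alternatives also covered scaling (edgeR 4.0.16 trimmed means), cell weights, thinning to 1000 UMIs, count minimums and size rules. Added after seeing the data were 2 ways of removing Mac cells by their lymphocyte marker UMIs, removal of cells over 1% haemoglobin UMIs, and class weights by cells. The second way of removing Mac cells was added after the first had left out about as many cells as it kept and had moved the summed ratio over all cells; both are reported. The class weights of the main text were changed during the work from cells to UMIs, so that own weights give the pooled value, and both are given. The intervals were tested on simulated Poisson counts without variation between cells or mice, so that test covers counting error only. Python 3.11.15, scipy 1.17.1 and R 4.3.3 were used. Positions came from GENCODE, in which 98.9% of gene symbols were found, and promoters from RefSeq. Columns of per-sample values left unused numbered 0.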

Additional observations from a re-analysis of the deposited data

Results flagged for a closer look

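Class I transcripts were also counted in barcodes to which the authors gave no class and which enter no comparison, well above the level in barcodes with over 50% haemoglobin UMIs (43.4 CPM in the diabetic and 71.4 CPM in the control library, summed over the 10 genes). Barcodes within the limits of the annotated cells had 5085 CPM in the diabetic library, from 9 barcodes, and 6812 CPM in the control library, from 903. H2-T23 ran the other way there than in the 13 classes, at 228 CPM from 3 UMIs in the diabetic and 60.9 CPM from 82 UMIs in the control library (ratio 3.74, interval 0.756 to 11.3). Barcodes with more genes than any annotated cell had 4666 CPM in the diabetic and 6686 CPM in the control library. Barcodes with over 10% mitochondrial UMIs had 2272 CPM in the diabetic and 3481 CPM in the control library.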

How the results depend on the processing

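No paired analysis was possible because each group is 1 library, and no replicate could be left out. No ratio of a called member crossed 1 under any alternative run. H2-T23 stayed below 1 throughout, with a range of 0.467 to 0.525 for ECs, 0.398 to 0.579 for Mac and 0.484 to 0.555 for Fib-2. Fib-1 had 0.390 to 0.520, VSMCs-2 0.423 to 0.638, Fib-3 0.315 to 0.776 and all cells 0.308 to 0.429. The range for all cells does not include the same-weights value over the main classes, which was 0.476. For the values below the cause was not tested. A higher count minimum leaves fewer members to test. Thinning leaves fewer UMIs and also gives every cell kept the same weight.

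Over all cells the summed ratio was 0.634 when scaled without mitochondrial, ribosomal protein and haemoglobin genes, 0.671 with equal weight for every cell, 0.658 after thinning, 0.568 without wall cells holding leukocyte UMIs, 0.622 without Mac cells holding 2 or more lymphocyte marker UMIs, and 0.777 or 0.791 with the same class weights by UMIs or by cells. Scaled without those genes it was 0.911 in Fib-2, 0.847 in VSMCs-2, 0.749 in Mac, 0.792 in ECs and 0.842 in Fib-3. In Mac it was 0.642 with trimmed mean scaling, which shifted genes there by -0.12 on the log2 scale, 0.720 with equal weights and 0.730 after thinning. In ECs it was 0.820 with equal weights, 0.798 without the cells with most UMIs and 0.839 without cells holding leukocyte UMIs.

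With a smaller fold in place of 1.5, members called lower were 6 of 10 tested in Mac and 4 of 10 in ECs. They were 3 of 9 in Fib-2, 3 of 8 in VSMCs-2 and 4 of 7 in Fib-3. The share of all genes called is given only at 1.5-fold with the main settings, so the counts in this paragraph have no such comparison. At the main fold or as stated, members called lower over all cells numbered 3 with equal weights, 3 after thinning and 1 at 2-fold. In Mac they numbered 5 with trimmed means, 1 when scaled without those genes, 0 after thinning and 1 at 2-fold. In Fib-2 they numbered 0 at 2-fold. In VSMCs-2 they numbered 0 after thinning, 0 without cells holding leukocyte UMIs and 0 at a minimum of 100 UMIs. In Fib-1 they numbered 0 after thinning and 0 at 100 UMIs. In Fib-3 they numbered 0 after thinning, 1 without cells holding leukocyte UMIs, 1 at 100 UMIs and 1 at 2-fold.

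Without wall cells holding leukocyte UMIs the Psmb8 share over all control cells was 44.9% and the Psmb9 share in control ECs 30.7%. Without the cell with most UMIs the Psmb9 share in diabetic VSMCs-1 was 0%. In the control order of classes by the sum, 2 classes moved by more than 1 place with equal weights and 1 after thinning.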
